A study of Mus musculus with 20 samples.

Results

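The 33 genes described here are those of the interferon response and of antigen processing, given as a list of gene symbols. A probe set was used where the annotation gave it exactly 1 symbol, and where a gene had several, the one whose mean across the 20 arrays was highest stood for it. By that rule 31 of the 33 genes were measured, among 18193 genes in all. Isg15 and Ifi44 have no probe set named by 1 symbol here and are not analysed. Livers came from male mice of the inbred strain C57BL/6J at an age of 8 weeks. In the high fat group, 10 mice ate a diet with 45% of its energy as fat for 4 weeks, and in the low fat group 10 mice ate one with 10% for the same time. All mice had first been kept on the low fat diet to settle in, all were fasted for 16 h before the livers were taken, and each liver was hybridised to its own Affymetrix array. Groups that received MSXH in the high fat diet, named in the design text, are not analysed here. Whole liver was used, so fewer cells of a type and less RNA per cell cannot be told apart.

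Interferons are secreted when cells sense viral RNA, through receptors such as RIG-I (Ddx58), MDA5 (Ifih1) and LGP2 (Dhx58). They act through the JAK-STAT pathway, in which Stat2 and Irf9 act at interferon-stimulated response elements in promoters, while interferon gamma acts through GAS elements and induces Irf1. The targets include antiviral effectors (Ifit, Oas and Rsad2 proteins), the chemokines Cxcl9 and Cxcl10 that attract T cells, the guanylate binding and immunity-related GTPases, and the machinery that loads peptides on MHC class I molecules (Tap1, Tap2 and tapasin, Tapbp). In the liver, hepatocytes and the resident macrophages called Kupffer cells both respond to interferons.

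Promoters of 5 of the genes are shown. Ifit1, Rsad2 and Ifit3 are printed because Rsad2 and Ifit3 were the genes of the 31 that followed Ifit1 between mice, and Gbp2 and Xaf1 because they had the highest median correlation with the others. They are the 250 bases before the start of the transcript in RefSeq (GRCm38.p6), at chr19:34640639-34640888 (+) for Ifit1, chr19:34583279-34583528 (+) for Ifit3, chr12:26456453-26456702 (-) for Rsad2, chr3:142620413-142620662 (+) for Gbp2 and chr11:72301379-72301628 (+) for Xaf1, written 5′ to 3′ on the gene's strand. Capitals mark matches to the core of an interferon-stimulated response element, searched as GAAA, any 2 bases and GAAA on both strands. The matches shown all lie on the opposite strand and so read here as the reverse complement.
Ifit1: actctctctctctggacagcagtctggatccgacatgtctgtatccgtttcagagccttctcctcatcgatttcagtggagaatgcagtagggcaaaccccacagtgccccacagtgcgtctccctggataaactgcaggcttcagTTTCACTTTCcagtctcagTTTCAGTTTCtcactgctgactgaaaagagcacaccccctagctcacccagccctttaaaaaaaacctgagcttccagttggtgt
Ifit3: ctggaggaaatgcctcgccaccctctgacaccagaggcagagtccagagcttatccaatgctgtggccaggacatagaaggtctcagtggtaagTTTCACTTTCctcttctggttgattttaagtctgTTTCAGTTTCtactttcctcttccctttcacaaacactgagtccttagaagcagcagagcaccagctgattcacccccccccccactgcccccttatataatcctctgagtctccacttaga
Rsad2: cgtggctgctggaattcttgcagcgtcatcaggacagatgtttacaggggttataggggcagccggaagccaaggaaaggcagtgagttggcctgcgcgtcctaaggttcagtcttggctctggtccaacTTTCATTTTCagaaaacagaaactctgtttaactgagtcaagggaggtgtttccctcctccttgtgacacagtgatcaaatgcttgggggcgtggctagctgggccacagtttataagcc
Gbp2: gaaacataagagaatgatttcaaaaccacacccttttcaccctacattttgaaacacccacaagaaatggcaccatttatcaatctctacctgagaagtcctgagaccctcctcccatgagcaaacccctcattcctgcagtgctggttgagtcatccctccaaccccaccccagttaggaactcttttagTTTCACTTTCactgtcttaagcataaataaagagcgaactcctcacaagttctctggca
Xaf1: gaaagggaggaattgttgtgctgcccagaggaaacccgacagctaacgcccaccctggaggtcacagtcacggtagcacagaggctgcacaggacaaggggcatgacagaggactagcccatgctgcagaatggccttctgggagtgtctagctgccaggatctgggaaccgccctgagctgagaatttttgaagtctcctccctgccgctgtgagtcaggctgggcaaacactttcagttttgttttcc
Ifit1 and Ifit3 held 2 matches each, with Ifit1's starting 104 and 85 bases before the start of the transcript. Rsad2 and Gbp2 held 1 each, at 120 and 59 bases before it, and Xaf1 held none in these letters. Of other genes named below as close pairs, Oas1a and Gbp3 had 2 matches each and Oasl2 and Ifit2 had 0. Of the 31 genes, 24 matched an entry in the promoter table, which runs from 250 bases before the start to 50 bases after it, and 12 of these 24 genes (50%) had a match on either strand. Among all 27025 genes with a promoter in that table the share was 3.99%. By role, all 4 GTPases with an entry, both RNA sensors, 4 of 10 antiviral effectors, 1 of 2 chemokines, 1 of 4 transcription factors and neither of 2 peptide loading genes had one. The core of a GAS element, searched as TTC, any 3 bases and GAA, was found on either strand in 5 of the 24 genes (20.8%), against 9.55% of all genes, and no match of one motif overlapped one of the other. A match describes the letters only and does not show that a factor binds there.

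The deposited value is a score whose level runs like a log2 intensity but which differs very little between arrays: its median SD over the 20 arrays was 1.17e-05. The compression differs between probe sets, so sizes are given in units of a gene's own SD within diets. A standardised difference is the high fat mean minus the low fat mean in those units, and values of single mice are distances from the low fat mean in the same units. All 6 measured hepatocyte markers, Alb among them, and all 8 Kupffer cell markers scored above the median of all probe sets (6.57), while the 4 B cell and 3 monocyte and neutrophil markers scored below it. By limma 0 of the 40 measured cell type markers passed, with 3 under an unadjusted p of 0.05. Over all genes 3.49% passed and 17% were under 0.05 unadjusted, so 0 calls among 40 markers do not show equal cell content. The hepatocyte marker Ttr, the gene of transthyretin, named after its values were seen, was nevertheless separated between diets: it ran from -3.81 to -2.09 in high fat mice and from -1.66 to 2.41 in low fat mice. Its difference was -3.12 (interval -4.43 to -1.76, adjusted p = 0.224 by limma), all 4 of its probe sets lay lower and 2 passed over all probe sets. Without limma's moderation of variances Ttr was the only marker of the 40 that passed (adjusted p = 0.000942). The lists' mean score per mouse overlapped between diets, for example from -1.10 to 2.11 in high fat mice and from -0.84 to 1.42 in low fat mice for the Kupffer cell list. The mean standardised value of the 24 probe sets for poly-A spike-in controls ran from -2.44 to 1.16 in high fat mice and from 0.15 to 0.98 in low fat mice. With it as a covariate 0 of the 31 genes passed by limma, with 2 under an unadjusted p of 0.05. Of all 18193 genes, 220 passed there with a higher and 191 with a lower high fat mean.

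High fat mouse 5 and low fat mouse 2 stood apart for these genes. In high fat mouse 5, 28 of the 31 genes lay above the mean of its own diet, and 19 had their highest value of that diet in it. In low fat mouse 2, 0 of 31 lay above the mean of its diet, and 20 had their lowest value of that diet in it. Their mean deviations were 1.42 and -1.25 SD, while over all genes 54.1% and 46.6% of values lay above the own diet's mean. High fat mouse 9 was the lowest of its diet for 14 of the 31 genes, with a mean deviation of -0.83. The Kupffer cell markers averaged 0.07 SD in high fat mouse 5, -1.08 in high fat mouse 9 and -0.84 in low fat mouse 2, and the poly-A score was -2.0, 0.15 and 0.28 in those mice. The part of these markers in the genes' values was not tested.

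**Figure D1:**
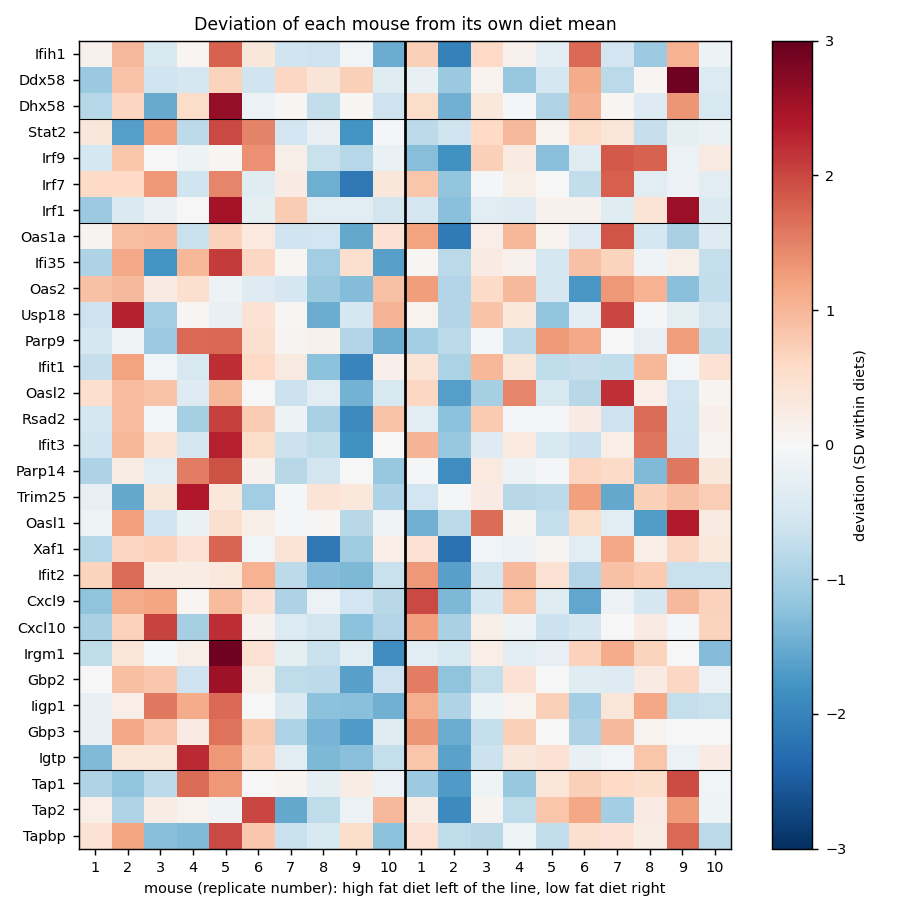
Deviation of each mouse from the mean of its own diet for the 31 genes, in SD within diets (colour scale), grouped by role with black lines; columns are mice by replicate number, with the high fat diet left of the vertical line. High fat mouse 5 is mostly red (28 of 31 genes above its diet's mean) and low fat mouse 2 is blue throughout (0 of 31 above).

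The first question was whether the interferon and antigen processing genes differ between the diets. By limma, 0 of the 31 genes passed an adjusted p of 0.05. Of all 18193 genes 3.49% did, 1.71% with a higher and 1.78% with a lower mean under high fat feeding. Among 31 genes a count of 0 is close to that share, so it does not set them apart from all genes. Of the 31, 2 had an unadjusted p under 0.05, Tapbp and Igtp (6.45%, against 17% of all genes), and the exact Wilcoxon rank sum test also called 0, with 2 under 0.05 unadjusted. Of the 31 genes, 11 had a higher mean and 20 a lower mean on the high fat diet, and the median standardised difference was -0.17, against 0.04 over all genes. The side of that comparison turned with the scaling: the median of the 31 genes minus that of all genes was -0.21 as deposited, 0.11 with quantile normalization and 0.27 with arrays centred on their median. The values ran from -1.46 (Tapbp) to 0.74 (Ifih1). Data were simulated with 200 of 18193 genes changed. There the fit recovered 6% of genes with a shift of 1 SD, 52% at 2 SD and 95% at 3 SD. A shift of 1 SD would thus mostly not be detected with 10 mice per diet. The data had more calls (635 genes), which loosens the adjusted threshold, so recovery may be higher there than in the simulation. Of the genes with several probe sets, 7 of 13 had them all in 1 direction, and 0 of the 51 probe sets passed over all probe sets (smallest adjusted p by limma 0.0897).

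**Figure D2:**
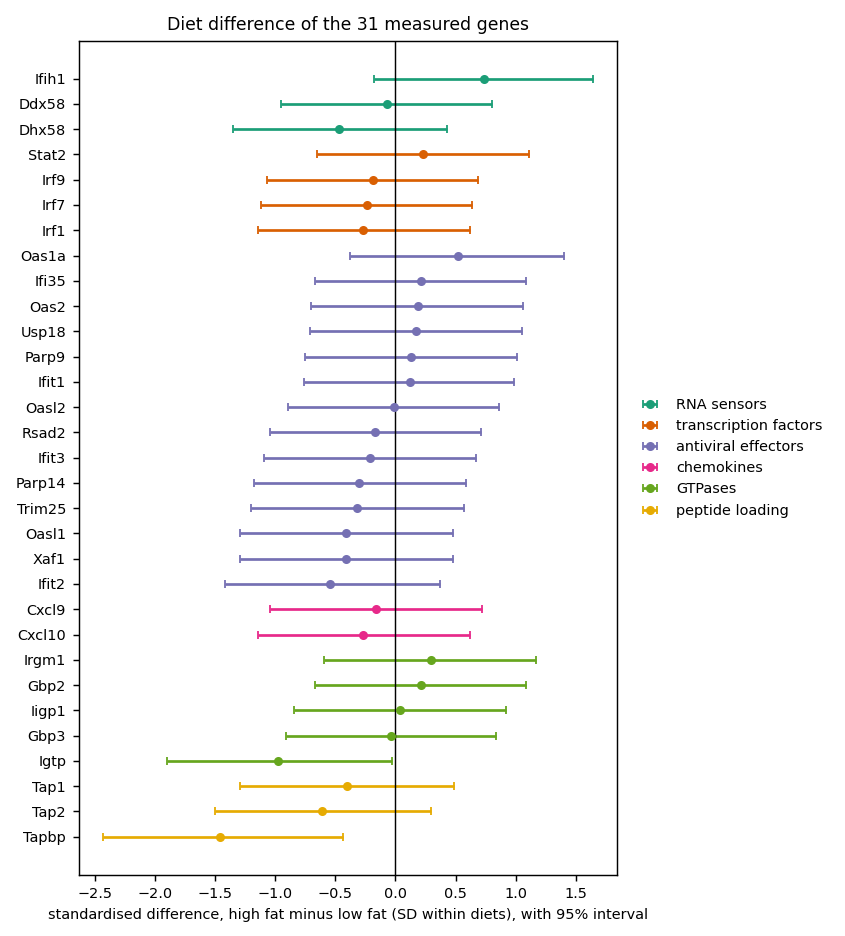
Standardised difference, high fat minus low fat, of the 31 genes with its 95% interval, in SD within diets; 10 mice per diet, coloured by role. The intervals of all but Tapbp and Igtp cross 0.

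All 3 peptide loading genes had a lower mean on the high fat diet, and none passed the test. Tapbp encodes tapasin, which bridges the peptide transporter and MHC class I molecules. Its deposited score was 9.524372 ± 4.18e-05 in high fat mice and 9.524424 ± 2.95e-05 in low fat mice (SD, n = 10 each). The high fat mice ran from -2.78 to 0.52 with a median of -1.47 and the low fat mice from -0.83 to 1.69 with a median of 0.05. The diets overlapped, and with each high fat mouse set against each low fat mouse the high fat one was the higher in 17 of 100 pairs. The standardised difference was -1.46 (95% interval -2.43 to -0.44, adjusted p = 0.0728 by limma). It passed the threshold without high fat mouse 5 (adjusted p = 0.0292 by limma), the mouse with the high interferon gene values, and under 3 scalings or filters given in the closing section. Its second, dimmer probe set had a standardised difference of -0.24. Tap2, a subunit of the transporter, ran from -2.15 to 1.41 (median -0.61) in high fat mice and from -1.91 to 1.27 (median 0.16) in low fat mice, a difference of -0.61 (interval -1.50 to 0.30, adjusted p = 0.544 by limma). Tap1, the other subunit, ran from -1.58 to 1.28 (median -0.48) in high fat mice and from -1.70 to 1.96 (median 0.14) in low fat mice, with a difference of -0.40 (interval -1.29 to 0.49, adjusted p = 0.708 by limma). For Tap1, 2 of its 4 probe sets lay the other way.

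Among the 5 GTPases, Igtp, an immunity-related GTPase induced by interferon gamma, had the one unadjusted p under 0.05. Its high fat mice ran from -2.31 to 1.26 (median -0.96) and its low fat mice from -1.60 to 0.84 (median 0.09), a difference of -0.98 (interval -1.90 to -0.03, adjusted p = 0.258 by limma). Its diets overlapped, and 8 of 10 high fat mice lay below the low fat median. Irgm1, of the same family, Gbp2 and Gbp3, guanylate binding proteins, and Iigp1 had differences between -0.04 and 0.30, each with an interval that held 0.

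The 3 RNA sensors lay on both sides of 0, and their diets overlapped. Ifih1, which detects long double-stranded RNA, ran from -0.75 to 2.52 (median 0.73) in high fat mice and from -2.03 to 1.69 (median -0.02) in low fat mice, a difference of 0.74 (interval -0.18 to 1.64, adjusted p = 0.422 by limma). Dhx58, a regulator of the other sensors, ran from -1.99 to 2.16 (median -0.54) in high fat mice and from -1.43 to 1.31 (median 0.00) in low fat mice, a difference of -0.47 (interval -1.35 to 0.43, adjusted p = 0.651 by limma), and its 3 probe sets all lay lower. Ddx58, the sensor of RNA with a triphosphate end, had a difference of -0.07. Of the transcription factors, Irf1, Irf7, Irf9 and Stat2 lay between -0.27 and 0.23, with adjusted p of 0.822 or more by limma.

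Of the 14 measured antiviral effectors, 6 had a higher and 8 a lower mean on the high fat diet, and 0 passed the limma threshold (smallest adjusted p 0.596). Ifit2, which binds viral RNA, ran from -1.89 to 1.14 (median -0.32) in high fat mice and from -1.63 to 1.30 (median -0.05) in low fat mice, a difference of -0.54 (interval -1.42 to 0.37). Oas1a, which makes the second messenger that activates RNase L, ran from -1.02 to 1.48 (median 0.71) in high fat mice and from -2.11 to 1.88 (median -0.14) in low fat mice, a difference of 0.52 (interval -0.38 to 1.40, adjusted p = 0.608 by limma). Both overlapped widely. Oasl1, a related protein, ran from -1.24 to 0.82 (median -0.50) in high fat mice and from -1.69 to 2.39 (median -0.12) in low fat mice, a difference of -0.41. Xaf1, an antagonist of apoptosis inhibitors, ran from -2.56 to 1.33 (median -0.11) in high fat mice and from -2.23 to 1.16 (median 0.14) in low fat mice, also -0.41. For these 2 the interval was -1.29 to 0.48 and the adjusted p 0.7 by limma. Trim25, a ubiquitin ligase that activates RIG-I, ran from -1.86 to 2.08 (median -0.19) in high fat mice and from -1.54 to 1.22 (median 0.10) in low fat mice, a difference of -0.32 (interval -1.20 to 0.57, adjusted p = 0.778 by limma). Parp14, a member of the PARP family, ran from -1.44 to 1.61 (median -0.46) in high fat mice and from -1.87 to 1.58 (median 0.13) in low fat mice, a difference of -0.30 (interval -1.18 to 0.59, adjusted p = 0.798 by limma). All of these sets of values overlapped between diets. The other effectors, Ifi35, Ifit1, Ifit3, Oas2, Oasl2, Parp9, Rsad2 and Usp18, lay between -0.21 and 0.21. Cxcl9 and Cxcl10 had differences of -0.16 and -0.27. Probe sets of one gene disagreed in direction for Rsad2, Stat2, Iigp1, Tap1, Xaf1 and Trim25.

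Further genes of the pathways were taken from 7 lists with 116 measured genes, of which 11 passed the limma threshold (9.48%, against 3.49% of all genes), 4 with a higher and 7 with a lower high fat mean. The class I presentation list held 8 of these 11 among its 18 genes (44.4%). In it, 5 genes fell and 3 rose, and the median was -0.57. The lists were chosen with earlier results of these data known, so these shares are no independent evidence. The 3 that rose, Calr, Pdia3 and Canx, are chaperones of the endoplasmic reticulum that fold many secreted proteins besides class I molecules. Calr scored 11.56148 ± 0.000504 in high fat mice and 11.55942 ± 0.000489 in low fat mice (SD, n = 10 each). It ran from 2.60 to 5.97 (median 4.27) in high fat mice and from -1.27 to 1.26 (median 0.06) in low fat mice. All high fat mice lay above all low fat mice, a difference of 4.15 (interval 2.53 to 5.74, adjusted p = 3.27e-05 by limma). Pdia3 rose by 2.72 SD (interval 1.46 to 3.94, adjusted p = 0.00188 by limma) and Canx by 1.79 (interval 0.72 to 2.83, adjusted p = 0.0272 by limma). Canx did not pass with the mean of its probe sets, without cross-hybridising probe sets or with arrays centred on their median (adjusted p = 0.0628, 0.18 and 0.115 by limma). Nor did Canx pass with the replicate number as a block (adjusted p = 0.0746 by limma).

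The 5 class I presentation genes that fell were H2-Q2, H2-K1, H2-Q10, Tapbpl and Cd1d1. H2-Q2 is a class I gene of the Qa region, and its probe set scored 5.75, below the median probe set. It ran from -3.84 to -1.32 (median -2.93) in high fat mice and from -1.54 to 1.48 (median 0.05) in low fat mice, with the high fat mouse higher in 3 of 100 pairs. Its difference was -2.74 (interval -3.97 to -1.48, adjusted p = 0.00175 by limma). H2-K1, the classical class I heavy chain, ran from -3.27 to -0.83 (median -2.28) in high fat mice and from -1.96 to 1.92 (median 0.08) in low fat mice, a difference of -2.15 (interval -3.25 to -1.01, adjusted p = 0.0149 by limma). All 4 of its probe sets lay lower and 1 passed. All 4 are of the kind that may cross-hybridise, so their agreement is not independent, and H2-K1 had no test without such probe sets. With the poly-A score as a covariate H2-K1 did not pass (adjusted p = 0.0601 by limma), nor with the replicate number as a block (adjusted p = 0.0767 by limma). H2-Q10, a secreted class I molecule of liver, ran from -4.45 to -0.70 (median -1.99) in high fat mice and from -1.70 to 1.49 (median -0.13) in low fat mice, a difference of -2.06 (interval -3.15 to -0.94, adjusted p = 0.0124 by limma). H2 genes resemble each other in sequence, and probe sets of one may read another, so which of them changed is uncertain. For H2-Q10 the direction depended on scaling: with quantile normalization it was higher on the high fat diet, at 2.68 (adjusted p = 0.00156 by limma). Tapbpl, a relative of tapasin that edits peptides, fell by 1.67 SD (interval -2.68 to -0.62, adjusted p = 0.0402 by limma). It did not pass in 12 of the 20 fits that left out a mouse. Nor did it pass with the poly-A covariate (adjusted p = 0.114 by limma) or the replicate block (adjusted p = 0.0939 by limma). Cd1d1, which presents lipids to natural killer T cells, fell by 1.65 SD (interval -2.66 to -0.61, adjusted p = 0.0429 by limma). That call failed in 15 of those 20 fits and turned to 2.05 with quantile normalization (adjusted p = 0.00925 by limma). It also failed with the replicate block (adjusted p = 0.078 by limma) and without moderation (adjusted p = 0.051 by limma's unmoderated fit). B2m, the invariant light chain, H2-D1 and the immunoproteasome genes Psmb8, Psmb9 and Psmb10 lay between -0.71 and -0.39, with adjusted p of 0.447 or more by limma. For H2-D1, 8 of 9 probe sets lay lower and 1 passed over all probe sets. Psme1, a subunit of the proteasome activator, had a difference of -1.53 (interval -2.53 to -0.51, adjusted p = 0.0588 by limma), with the high fat mouse higher in 12 of 100 pairs.

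Bst2 and Ifitm2 were the 2 of 41 other interferon-stimulated genes that passed, and both fell. That share (4.88%) is close to the 3.49% of all genes. Of the 41, 5 had an unadjusted p under 0.05 by limma, against 17% of all genes, so the count is no result about the list. Bst2 encodes tetherin, which holds budding virus particles at the cell surface, and Ifitm2 a membrane protein that blocks virus entry. Bst2 ran from -4.52 to -1.01 (median -2.89) in high fat mice and from -1.18 to 1.65 (median -0.10) in low fat mice, a difference of -2.87 (interval -4.12 to -1.57, adjusted p = 0.00136 by limma). In 1 of 100 pairs the high fat mouse was higher. Ifitm2 scored 9.78506 ± 0.000113 in high fat mice and 9.78565 ± 0.000211 in low fat mice (SD, n = 10 each). It ran from -4.35 to -2.04 (median -3.56) in high fat mice and from -1.48 to 2.08 (median -0.29) in low fat mice, with no overlap, and its difference was -3.46 (interval -4.87 to -2.02, adjusted p = 0.000228 by limma). With quantile normalization Ifitm2 did not pass (adjusted p = 0.403 by limma).

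In the nucleic acid sensing list 1 of 11 genes passed (9.09%, against 3.49% of all genes): Ikbke, a kinase that phosphorylates Irf3 and Irf7. It ran from 0.46 to 3.49 (median 2.03) in high fat mice and from -0.86 to 2.32 (median -0.24) in low fat mice, a rise of 1.94 SD (interval 0.84 to 3.00, adjusted p = 0.0169 by limma). Its direction turned with quantile normalization, to -0.57 (adjusted p = 0.422 by limma). Sting1, the adaptor for cytosolic DNA sensing, had a difference of 1.58 (adjusted p = 0.0576 by limma), and the median of the list was 0.74. With 11 genes, 1 call is too few to be a result about the list. No gene passed by limma among 11 interferons and receptors or 11 genes of JAK-STAT and IRF signalling. The same held for 11 interferon gamma GTPases and chemokines and for 13 genes of class II presentation. In these lists, in that order, 0, 2, 1 and 0 genes had an unadjusted p under 0.05, against 17% of all genes. Their smallest adjusted p were those of Ifng at 0.92 SD (0.296), Irf5 at 1.06 (0.212), Ido1 at 1.17 (0.162) and Ifi30 at -0.78 (0.395) by limma, and their medians were -0.07, 0.25, 0.16 and -0.12.

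**Figure D3:**
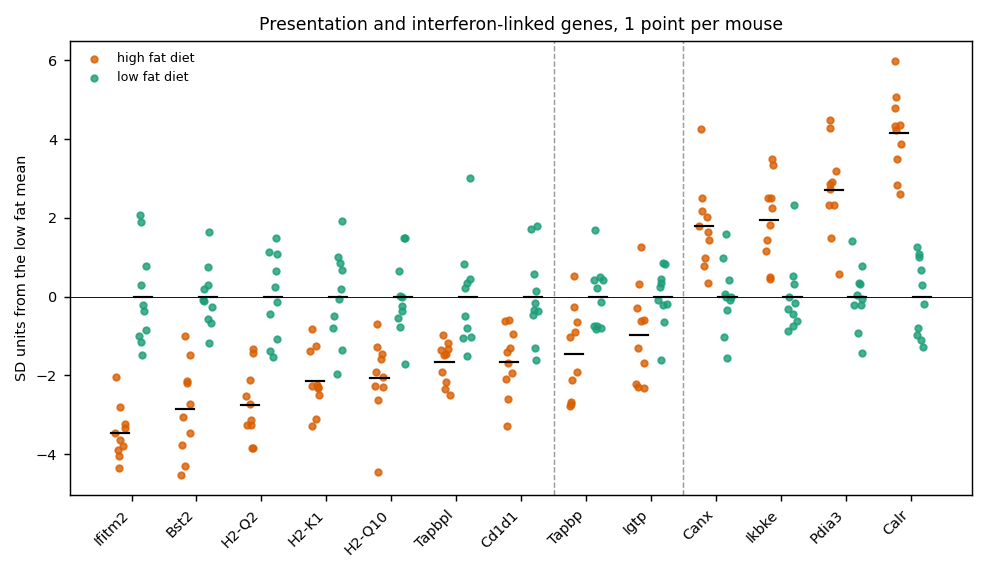
Distance from the low fat mean in SD within diets, 1 point per mouse, for the 11 further genes past the limma threshold and, between the dashed lines, Tapbp and Igtp; high fat mice stand left of low fat mice for each gene, and bars are means of 10 mice. Ifitm2 and Calr show no overlap between diets, while the diets overlap for Tapbp and Igtp.

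The second question was whether the 31 genes vary together from mouse to mouse once the diet means are taken out; it was added after the data were seen. Over the 20 mice, the 465 pairs of these genes had a median Pearson r of 0.34, and 29% had an r of at least 0.5, against 4.02% of all gene pairs. Over the 10 high fat mice alone the median was 0.42 with 43% of pairs at 0.5 or more (9.21% of all gene pairs), and over the 10 low fat mice alone 0.27 with 26.5% (10.9%). Without high fat mouse 5 and low fat mouse 2 the median was 0.15, with 18.9% of pairs at 0.5 or more against 4.77% of all gene pairs. These 2 mice were picked for their values of the same 31 genes, which by itself can lower the r of these genes. With all 20 mice, quantile normalization lowered the median r to 0.07, where 6.67% of pairs reached 0.5 against 5.03% of all gene pairs. These r values are descriptions, since all genes of a mouse share 1 array.

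**Figure D4:**
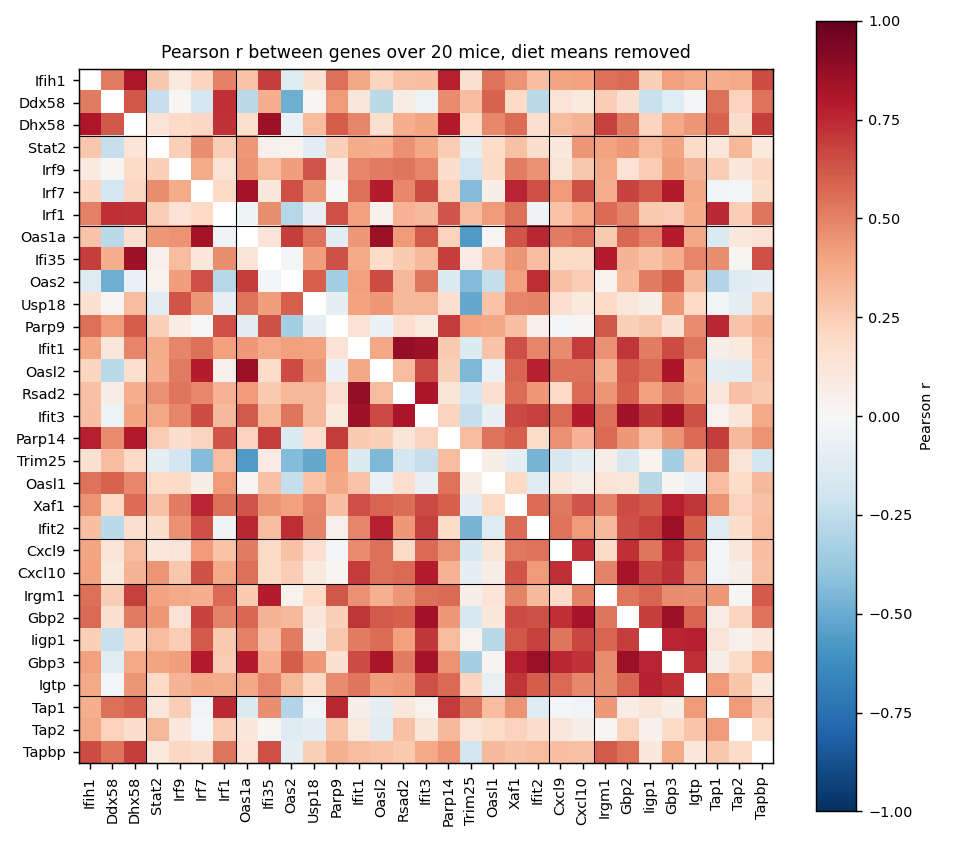
Pearson r between the 31 genes over 20 mice with the diet means removed, in the order of their roles (black lines); colour runs from -1 (blue) to 1 (red). Most pairs are red (405 of 465 above 0), with the highest r, 0.88, between Ifit1 and Rsad2, and Trim25 is mostly blue.

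By role, pairs of GTPases had a median r of 0.64 and RNA sensors 0.62, and the pair of chemokines 0.73. The antiviral effectors had 0.33, the peptide loading genes 0.27 and the transcription factors 0.24. Gbp2 and Xaf1 had the highest median r with the other 30 genes (0.54 each), followed by Ifit3 (0.51), while Ddx58 had 0.12 and Trim25 -0.10. The closest pairs were Ifit1 and Rsad2 (r = 0.88), which is viperin, an enzyme that makes a chain-terminating nucleotide, Oas1a and Oasl2 (0.86), and Ifit2 and Gbp3 (0.86). Without the 2 mice named above these were 0.82, 0.82 and 0.89.

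A limma fit over all 18192 other genes asked which follow each of 3 genes within diets, making 90 pairs with the other members. Irf7, the factor that amplifies type I interferon production, was followed by 4 of the other 30 genes (adjusted p of 0.05, by limma), all positive, where 0.242% of all genes were positive calls. These were Oas1a, Gbp3, Oasl2 and Xaf1. The permutation p given here and for Ifit1 below were computed only for genes that limma had called in the same mice. They are not adjusted for that choice and add no separate support. For Oas1a Pearson r was 0.83 and Spearman's rho 0.88 (permutation p = 1e-05 each, the smallest that 100000 resamples can give, adjusted p = 0.0153 by limma). Gbp3 had r 0.79 and rho 0.81 (permutation p = 0.00013 and 8e-05, adjusted p = 0.0253 by limma), and Oasl2 r 0.78 and rho 0.76 (permutation p = 1e-05 and 0.00031, adjusted p = 0.0305 by limma). Xaf1 had r 0.76 and rho 0.68 (permutation p = 0.00031 and 0.00174, adjusted p = 0.0372 by limma). Without the 2 mice farthest from the median of Irf7, high fat mouse 9 and low fat mouse 7, r was 0.74, 0.73, 0.64 and 0.74. Within the high fat mice these r were 0.86, 0.77, 0.83 and 0.76, and within the low fat mice 0.91, 0.84, 0.84 and 0.76. The number of calls rested on single mice: it was 0 without high fat mouse 9, 1 without high fat mouse 3 or high fat mouse 5, 2 without high fat mouse 8, low fat mouse 1 or low fat mouse 6, and 8 without low fat mouse 7. Of the 41 other interferon-stimulated genes, 4 also followed Irf7: Trim30a, Ifi27l2a, Rtp4 and Lgals3bp. Of the 11 interferon gamma GTPases and chemokines 1 did, Gbp6. Their r were 0.85, 0.82, 0.81, 0.78 and 0.77 (adjusted p between 0.0115 and 0.0352 by limma). Over all 18192 other genes there were 44 positive and 41 negative calls. Genes outside the lists were among them, such as Fgl2 (r = 0.86) and Med30 (r = -0.86).

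Ifit1 was followed by Rsad2 and Ifit3, 2 of the other 30 genes, where 0.0165% of all genes were positive calls. Rsad2 had r 0.88 and rho 0.80 (permutation p = 1e-05 and 0.00015, adjusted p = 0.00693 by limma) and Ifit3 r 0.85 and rho 0.73 (permutation p = 1e-05 and 0.00069, adjusted p = 0.0211 by limma). Without high fat mouse 5 and high fat mouse 9, which lie farthest from the median of Ifit1, r was 0.78 and 0.70. Both calls were lost when either of those mice was left out alone, and 1 of the 2 when high fat mouse 2, high fat mouse 8 or low fat mouse 2 was. Within the high fat mice the r with Rsad2 and Ifit3 were 0.95 and 0.94, and within the low fat mice 0.71 and 0.63. The promoters of these 3 genes are the first printed above, each with a response element match. Irf1, which interferon gamma induces, was followed by 0 of the other 30 genes by limma, where 0.0275% of all genes were positive calls. Of those 30 genes 11 (36.7%) had an unadjusted p under 0.05, against 10.3% of all genes. The r of these 11 genes with Irf1 ran from 0.47 (Ifi35) to 0.74 (Tap1). Without high fat mouse 5 and low fat mouse 9, which lie farthest from the median of Irf1, they ran from -0.09 (Tapbp) to 0.63 (Tap1). How many of the 30 genes stay under 0.05 without those mice was not counted. The mice were chosen as the farthest for Irf1, which by itself can lower r.

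The same r was taken between the 31 genes and genes of the other lists. Pairs of a Kupffer cell marker with the 31 genes had a median r of 0.25, and 15.7% reached 0.5, against 3.56% of all genes' pairs with them. For the further interferon gamma GTPases and chemokines that share was 30.5%, for class II presentation 19.9%, for other interferon-stimulated genes 16.6% and for class I presentation 15.8%. Hepatocyte markers had a median r of -0.13 and T and NK cell markers of 0.11. With Irf7 the 8 Kupffer cell markers had a median r of 0.51, and 0 passed by limma, with 6 of the 8 under an unadjusted p of 0.05, against 12.8% of all genes. The part of Kupffer cell content in the shared variation was not tested. Of the 8 Kupffer cell markers, 4 lay above the mean of the own diet in high fat mouse 5, which was high for the 31 genes. In high fat mouse 9 and low fat mouse 2, both low for them, 0 and 1 did. The Kupffer cell markers averaged highest in high fat mouse 3 (2.13 SD), low fat mouse 7 (1.42) and low fat mouse 9 (1.05). There the 31 genes averaged 0.11, 0.38 and 0.47 SD.

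**Figure D5:**
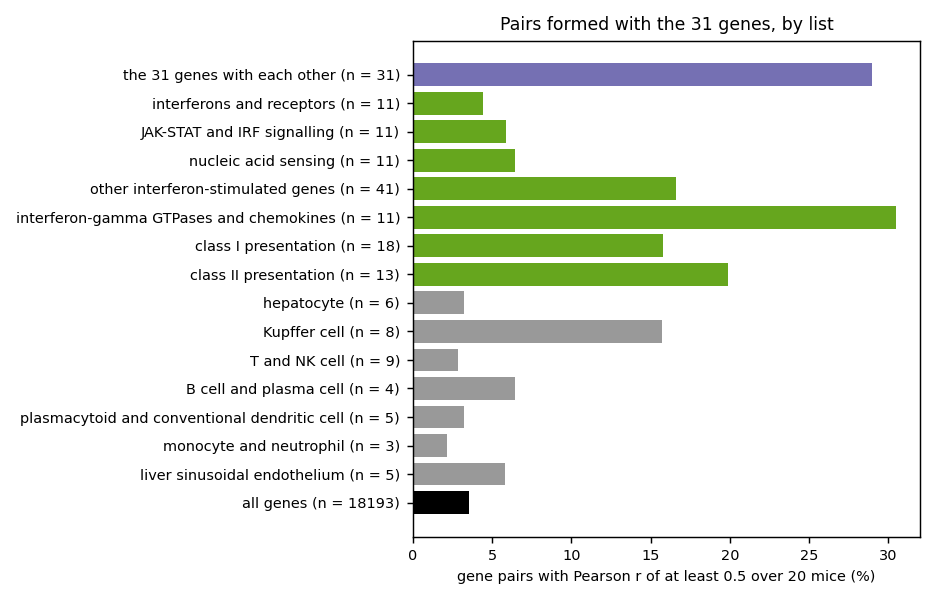
Share of gene pairs with a Pearson r of at least 0.5 over 20 mice, diet means removed, for the 31 genes with each other (29%, top), for pathway lists (green), cell type marker lists (grey) and all genes (black), each paired with the 31 genes; n is the number of genes. The interferon gamma GTPases and chemokines reach 30.5% and the Kupffer cell markers 15.7%, against 3.56% for all genes.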

How the data were processed

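Per the labels, total RNA of each liver was made into biotin-labelled RNA with a 3′ kit and hybridised to 1 Affymetrix array. The deposited value is a score per probe set, normalised by the authors between arrays by a method not given in the sources used here. Genes were named from the platform annotation: 34945 of 45037 probe sets had 1 symbol, 932 had several, and 9160 are unnamed here. No filter was used, and 0 columns of the table belonged to other samples.

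The diet effect was fitted in R 4.3.3 with limma 3.58.1 (eBayes after lmFit, two-sided, prior of 0.724 degrees of freedom), with Benjamini-Hochberg adjustment over 18193 genes and a threshold of 0.05. Intervals of standardised differences come from the noncentral t distribution. Design and unit differed: the planned log2 values proved to be a compressed score, and limma was kept. Its prior is on the scale of the score, so it lowers the statistic of probe sets with very small SDs; the fit without moderation is among the alternatives. The number of mice limits the precision.

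The genes and lists were chosen with earlier results of these data known, so no list is independent evidence. Named are all 31 genes (values per diet for the 12 with the smallest p), list genes past the threshold and otherwise those with the smallest adjusted p. B2m, H2-D1, Psmb8, Psmb9, Psmb10, Psme1, Sting1 and Ttr lie outside that rule, chosen once their values had been seen. Co-variation was fitted as gene on diet plus the score of Irf7, Irf1 or Ifit1, and pair r were computed on deviations from diet means. In simulated data of 18193 genes with 200 co-varying, 7%, 42% and 100% were recovered at an r of 0.5, 0.7 and 0.9, with 7 false calls; the diet fit made 4. Replicate numbers did not pair the mice. Alternatives are in the closing section.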

Additional observations from a re-analysis of the deposited data

Results flagged for a closer look

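In 10 of 84 tests of a gene within a diet, 1 mouse lay so far from the nearest other mouse that the gap, as a share of the diet's whole range, was above Dixon's critical value for 10 mice; chance gives about 1 in 20. High fat mouse 5 was the highest of its diet for Irf1 (gap of 0.482 of the range), Irgm1 (0.515) and Dhx58 (0.479). Without it the standardised differences were -0.67, -0.04 and -0.98, against -0.27, 0.30 and -0.47 with it. Low fat mouse 9 was the highest of its diet for Irf1 (0.562), Tapbp (0.477), Ikbke (0.567) and Tapbpl (0.481). Without it the differences were 0.03, -1.36, 2.61 and -1.96, against -0.27, -1.46, 1.94 and -1.67 with it, so the mean of Irf1 changed sides and no call among these 4 genes was lost or gained. Low fat mouse 2 was the lowest for Xaf1 (0.558), and without it the difference was -0.77. High fat mouse 4 was the highest for Trim25 (0.504), and without it the difference was -0.71. High fat mouse 9 was the lowest for H2-Q10 (0.489), at -4.45 SD, and without it the difference was -2.17 (adjusted p = 0.0136 by limma).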

How the results depend on the processing

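The count of 0 genes of the 31 passing on the higher side held under all alternatives run, and 0 on the lower side under all but 4: Tapbp passed with quantile normalization, with only the genes above the median level and without high fat mouse 5 (1 gene each, so a range of 0 to 1 when single mice were left out), and 16 genes passed with arrays centred on their median. Median centring moved the genes as a whole down, with 14625 lower calls and a median of -1.24 over all genes, and quantile normalization moved that median to -0.40; under these the 31 genes had medians of -0.97 and -0.30, which lie above those of all genes by 0.27 and 0.11, while without them the median lay on the other side (-0.21). Under median centring Stat2 (-1.19), Ifi35 (-1.32) and Parp9 (-1.30) passed on the lower side, and Ikbke turned to -0.04. Under quantile normalization Ikbke turned to -0.57, H2-Q10 to 2.68 and Cd1d1 to 2.05. The cause was not tested. Of the further genes 75 passed with median centring, 7 with the replicate block and 5 at an adjusted p of 0.01, against 11, and 9 to 11 without single mice. With quantile normalization 15 passed, of which 6 were among those 11, 4 in the same direction and 2 (H2-Q10 and Cd1d1) in the opposite one; H2-K1, Calr and Canx had 1 value on all arrays there and gave no test. Without moderation 10 of the 11 passed, and 0 of the 31. The replicate numbers did not pair the mice (r of same-numbered mice -0.16 to 0.26, 2 of 10 above 0.1); the replicate block gave 237 genes higher and 184 lower, against 312 and 323.

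Calls for co-variation with Irf7 numbered 0 with quantile normalization, 1 without both mice named above and 0 to 8 without single mice, against 4. With Ifit1 they numbered 0, 0 and 0 to 2, against 2. With Irf1 they numbered 0 throughout. The median r over pairs was 0.07 with quantile normalization (all gene pairs 0.06), 0.49 with median centring (all gene pairs 0.89), 0.15 without both mice and 0.25 to 0.37 without single mice, against 0.34. The normalisation of the deposited score is not known, and these values depend on it.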
